A study of Mus musculus with 80 samples.

Results

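Mitochondrial ribosomal protein genes encode the proteins of the ribosome that works inside mitochondria. In mouse lung, 49 such genes could be followed on single-gene array spots, of 7151 genes measured that way, and these 49 genes are described here over 40 mice of 4 ages and both sexes. A gene belonged to the set if a spot carried its symbol and no other in the platform annotation and the symbol began with Mrpl or Mrps followed by a number. Where a gene had more than 1 such spot, the spot of highest mean over the 40 mice stood for it. The set was therefore chosen by name, and the choice of spot used only the mean over all mice.

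The mitochondrial ribosome translates the few messages of mitochondrial DNA, which code for subunits of the respiratory chain and of ATP synthase. Its RNAs are made in the organelle, whereas all of its proteins are encoded in the nucleus, made on cytosolic ribosomes and imported. Proteins named Mrpl belong to the large subunit, which joins amino acids and holds the exit tunnel, and proteins named Mrps to the small subunit, which decodes the message. Many have counterparts in the bacterial ribosome and others are found in mitochondria alone, so the 2 kinds were kept apart.

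The mice were C57BL/6, an inbred strain, with no transgene or treatment in the labels, and all had regular feed without restriction. They formed 4 age groups of 10, with 5 males and 5 females in each: the youngest (17-44 d), young adult (169-194 d), middle-aged (476-499 d) and oldest (704-743 d) mice. Total lung RNA was made into cDNA with a radioactive label and hybridised to 2 arrays per mouse, called table A and table B, which carry different clones. The deposited values are z scores: each array has mean 0 and SD 1 over its spots, so a value is a spot's distance from the array's mean in SDs of that array. Every difference below is in these z units and no fold is given. A whole lung holds many cell types, and fewer cells of a type and less RNA per cell cannot be told apart.

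Among the 49 genes were 35 of the large subunit, of which 23 have bacterial counterparts and 12 are particular to mitochondria. The small subunit was represented by 14 genes, 10 of them with bacterial counterparts and 4 without. Table A held 26 of the genes and table B held 23. By the names alone, Mrps18a and Mrps36 were counted with the small subunit, although the first is now placed in the large subunit and the second is now known as part of the 2-oxoglutarate dehydrogenase complex. In all, 55 spots carried a member's symbol alone and 4 carried it with a second gene's symbol. Mrps6 was found only on 1 of these shared spots, beside Slc5a3, and was left out.

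The promoters of these genes are shown first because NRF1 and the ETS factor GABP are textbook regulators of nuclear genes for mitochondria, so a reader can see which of the genes discussed below carry their motifs. RefSeq promoter windows (GRCm38.p6), from 250 bases before to 50 bases after the transcription start, were found for 43 of the 49 genes. The 3 genes whose signal differed among the youngest mice are given, then Mrpl45, whose 2 spots are compared below. Capitals mark matches on either strand to the NRF1 motif (GCGCA, any 1 base, then GCGC), its core TGCGCA, or the ETS motif CCGGAAG. The core can overlap the NRF1 motif, and adjoining capitals then show both.
Mrpl44, chr1:79775768-79776067, plus strand: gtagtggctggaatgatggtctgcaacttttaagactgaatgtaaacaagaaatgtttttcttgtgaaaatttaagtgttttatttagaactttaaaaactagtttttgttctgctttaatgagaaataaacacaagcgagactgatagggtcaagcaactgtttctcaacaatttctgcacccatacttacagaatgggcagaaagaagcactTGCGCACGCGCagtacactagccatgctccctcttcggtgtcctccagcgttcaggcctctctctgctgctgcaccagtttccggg
Mrpl50, chr4:49521034-49521333, minus strand: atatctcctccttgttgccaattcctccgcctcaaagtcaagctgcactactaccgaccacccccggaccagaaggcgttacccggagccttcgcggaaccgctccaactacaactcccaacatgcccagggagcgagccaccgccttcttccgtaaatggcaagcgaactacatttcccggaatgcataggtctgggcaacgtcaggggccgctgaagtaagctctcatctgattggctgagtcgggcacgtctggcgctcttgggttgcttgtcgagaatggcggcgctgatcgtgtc
Mrpl24, chr3:87919294-87919593, plus strand: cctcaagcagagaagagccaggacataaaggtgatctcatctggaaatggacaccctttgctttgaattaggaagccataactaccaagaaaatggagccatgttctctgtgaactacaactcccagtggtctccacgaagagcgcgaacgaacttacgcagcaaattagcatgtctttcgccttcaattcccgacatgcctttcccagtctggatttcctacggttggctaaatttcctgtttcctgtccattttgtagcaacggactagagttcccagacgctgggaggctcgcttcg
Mrpl45, chr11:97315466-97315765, plus strand: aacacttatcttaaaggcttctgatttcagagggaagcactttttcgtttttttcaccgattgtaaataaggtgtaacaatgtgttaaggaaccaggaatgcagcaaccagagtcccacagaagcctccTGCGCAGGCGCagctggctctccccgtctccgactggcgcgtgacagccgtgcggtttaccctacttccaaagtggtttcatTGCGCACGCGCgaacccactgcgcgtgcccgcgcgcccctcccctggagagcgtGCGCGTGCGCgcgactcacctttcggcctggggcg

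The Mrpl44 window holds 1 NRF1 match, which begins 35 bases before the start site, and the Mrpl45 window holds 3. The windows of Mrpl50 and Mrpl24 hold neither motif nor the core, which says only that these letters are not in these windows. Some genes, such as Mrpl2 and Mrpl48, have several windows, and a gene was counted if any of its windows held a match. Of the 43 genes, the NRF1 motif was found in 8 (18.6%), compared with 5.19% of all 27018 genes with a window and 7.17% of the 17486 protein-coding ones. Its core was found in 16 (37.2%), compared with 8.79% of all genes and 11.003% of protein-coding genes. The ETS motif was found in 12 (27.9%), compared with 9.93% and 13.0%. TATAAA, searched in the same way, was found in 4 (9.3%), compared with 15.7% of all genes. In total, 25 of the 43 genes had at least 1 match to the NRF1 motif, its core or the ETS motif. These shares are descriptions of letters and were not tested.

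Mrps11 and Mrpl46 start head to head on chromosome 7, with start sites 42 bases apart, so that 1 stretch serves as the window of a small-subunit and a large-subunit gene. The 141 bases common to both windows, chr7:78783040-78783180 on the plus strand, hold none of the motifs searched and so carry no capitals.
Mrps11 and Mrpl46, shared: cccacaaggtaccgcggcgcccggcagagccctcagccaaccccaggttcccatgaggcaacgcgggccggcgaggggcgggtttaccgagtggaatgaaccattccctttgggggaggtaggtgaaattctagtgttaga
Over the 40 mice, the signals of the 2 genes, both on table A, had a Pearson's r of -0.13 (permutation p = 0.397, adjusted 0.482 over the 7 relations computed) and a Spearman's rho of -0.08 (permutation p = 0.63, adjusted 0.63). Without the 2 mice farthest from the median, r was 0.005. No correlation of this pair passed the threshold.

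The level of a spot depends on its clone as well as on the message, so the levels are given spot by spot and show no order of the genes' messages. Spot means over the 40 mice ran from -1.54 for Mrpl46, a large-subunit protein particular to mitochondria, to 1.76 for Mrpl1, the counterpart of the bacterial protein of the mobile L1 stalk. The mean was above 0 for 25 of the 49 genes. Counted within its own table, 13 of the spots lay above percentile 75 of all spots and 10 below percentile 25, and the median member lay at percentile 53.1. On table A the highest spots were Mrpl19 (1.74 ± 0.17, SD, n = 40), Mrpl38 (1.58 ± 0.21) and Mrpl28 (1.23 ± 0.15), and the lowest were Mrpl46 (-1.54 ± 0.32), Mrpl2 (-1.19 ± 0.18) and Mrpl15 (-0.91 ± 0.28). On table B the highest were Mrpl1 (1.76 ± 0.11), Mrpl50 (1.18 ± 0.27) and Mrpl17 (0.94 ± 0.21), and the lowest were Mrps12 (-1.24 ± 0.21), Mrpl11 (-1.02 ± 0.13) and Mrps14 (-0.87 ± 0.21). Mrps12 is the counterpart of a bacterial protein at the decoding centre and Mrpl11 that of a protein at the base of the stalk where translation factors bind.

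**Figure D1:**
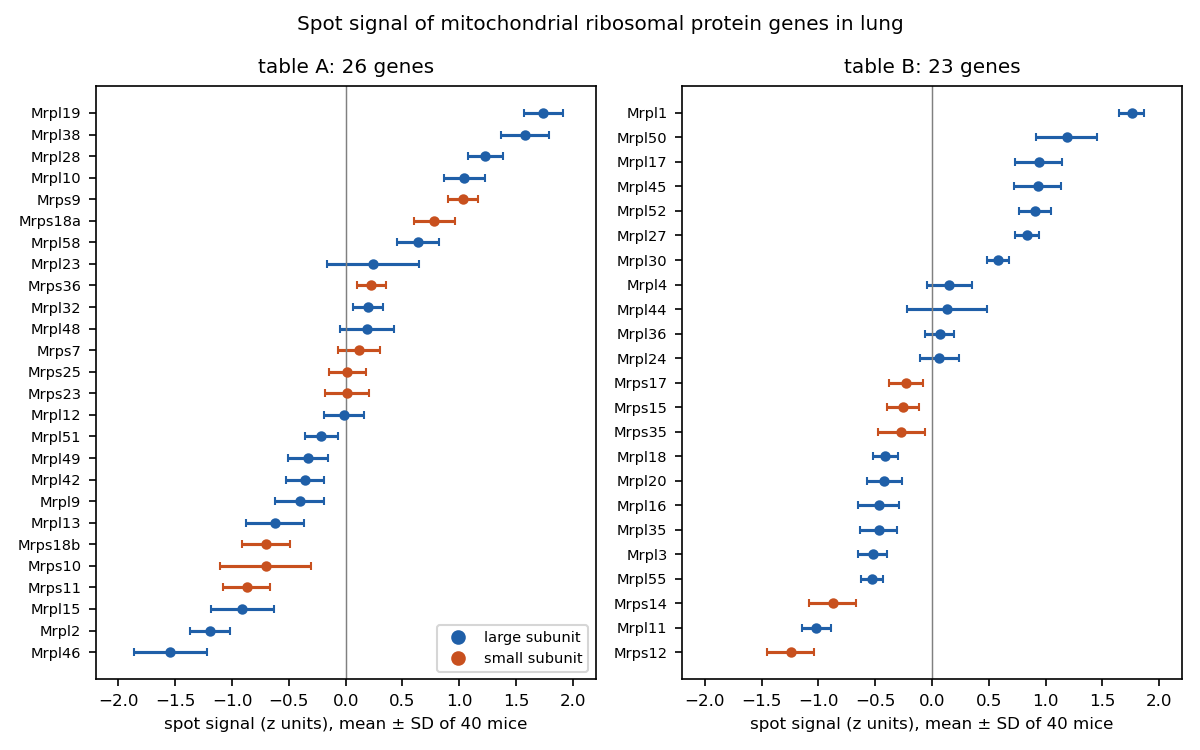
Mean spot signal of each gene over 40 mice in z units, with bars of 1 SD, for the 26 genes of table A and the 23 of table B; blue marks the large and orange the small subunit. Means run from -1.54 to 1.76, and the SD bars are short beside that range for most genes.

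Within groups of the same age and sex, the SD between mice was 0.175 for the median member and ran from 0.0941 for Mrpl30 to 0.432 for Mrpl23. The median over all spots was 0.202 on table A and 0.181 on table B. The median of the 49 genes in each mouse averaged -0.09 ± 0.04 in the youngest, -0.07 ± 0.09 in the young adult, -0.04 ± 0.07 in the middle-aged and -0.07 ± 0.07 in the oldest mice (SD, n = 10 each). The ranges of the 4 age groups overlapped, from -0.15 to -0.03 in the youngest group and from -0.19 to 0.05 in the oldest. The sample titles number the mice. In the order of these numbers, the table A median averaged 0.05, 0.03, 0.02, -0.06 and -0.05 over 5 successive sets of 8 mice, each with 1 mouse of every age and sex group, and ranges of the sets overlapped. In males the median of all 49 ran from -0.2 to 0.05 and in females from -0.16 to 0.09.

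**Figure D2:**
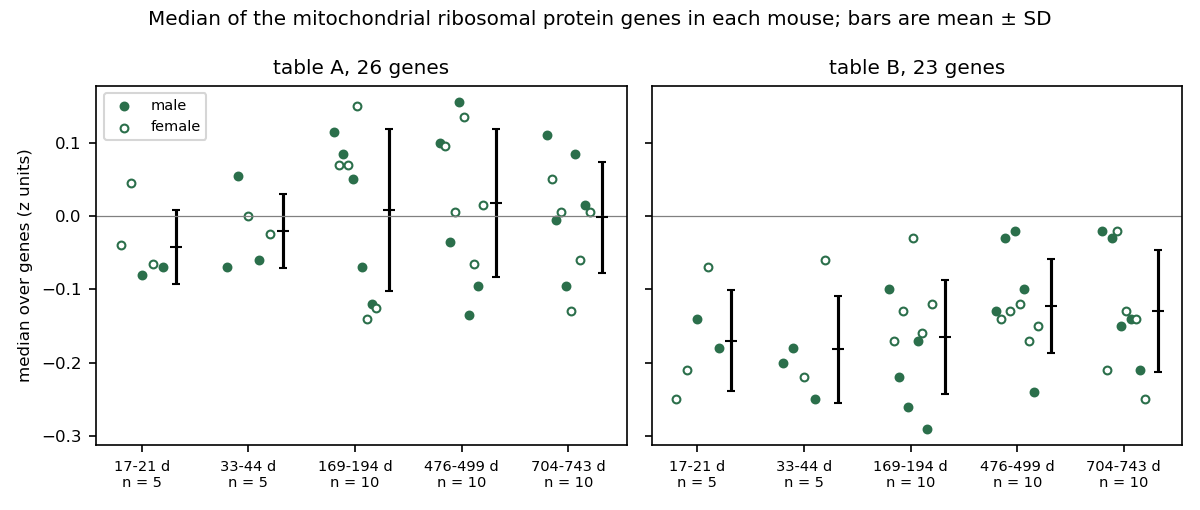
Median spot signal over the member genes of each table in each mouse, in z units, by age; filled points are males, open points females, and bars are mean ± SD. The age groups overlap on both tables.

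The first comparison asked whether the signal of these genes changed steadily over life, as a slope with age in z units per 100 days over all 40 mice. None of the 49 genes passed at an adjusted p under 0.05, and 0.0178% of the 16896 spots did (limma, Benjamini-Hochberg over all spots). At an unadjusted p under 0.05 there were 5 genes, 1 higher and 4 lower with age, which is 10.2% of the genes against 13.8% of all spots (5.44% higher and 8.32% lower). The median slope was 0.003 for the members and 0.003 for all spots, and slopes were above 0 in 59.2% of members and 57.9% of spots. Members therefore stood close to the background in both respects. The median 95% interval reached 0.021 to either side of its slope, which is the precision these 40 mice gave.

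The slopes below unadjusted 0.05 all belonged to large-subunit genes on table B. Mrpl44, whose protein has a ribonuclease III-like fold and lies on the large subunit, had the steepest slope. Its signal ran from -0.11 to 0.85 (median 0.475) in the youngest mice, from -0.39 to 0.64 (0.025) in young adults, from -0.26 to 0.64 (0.25) in middle age and from -0.41 to 0.31 (-0.17) in the oldest. The oldest mice were lowest on the median, the groups overlapped, and the 2 middle groups were not in order of age. The slope was -0.06 ± 0.02 per 100 days (SE, n = 40, adjusted p = 0.0629, limma). It passed in other settings, with adjusted p of 0.0374 when the dimmest spots were left out, 0.00359 with array weights and 0.00819 on log2 age, and on leaving out any 1 of 8 mice (male replicates 1 and 5 and female replicate 5 of the youngest, female replicate 2 and male replicate 3 of the young adults, male replicate 2 in middle age, and male replicates 1 and 4 of the oldest). The share of all spots that passed in these settings is not given here, so these passes have no background beside them. The slope of Mrpl44 did not pass on leaving out any other mouse, with adjusted p up to 0.163 without male replicate 3 of the youngest. Nor did it pass after quantile normalization (adjusted p = 0.0734). Corrected for the spot's block and column on the array, the slope was -0.03 (adjusted p = 0.0778). With the 5 sets of 8 mice in title order as a block (chosen after seeing the data), the slope of Mrpl44 was -0.06 and passed (adjusted p = 0.0475), as 2.39% of all spots did, and no other member passed.

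Mrpl50, a large-subunit protein particular to mitochondria, had medians of 1.44, 1.205, 1.16 and 0.98 in the 4 groups from youngest to oldest. Individual mice ran from 0.86 to 1.74 in the youngest group and from 0.70 to 1.42 in the oldest, so these groups overlapped over most of their range. The slope was -0.04 ± 0.01 (SE, n = 40, adjusted p = 0.174), and it passed with array weights (adjusted p = 0.0149) and on log2 age (0.0348). For these settings, too, the share of all spots that passed is not given. Corrected for block and column the slope of Mrpl50 was -0.005 (adjusted p = 0.751).

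Mrpl52, also particular to mitochondria, ran from 0.81 to 1.13 in the youngest and from 0.69 to 1.02 in the oldest mice, with a slope of -0.02 ± 0.01 (adjusted p = 0.293). Corrected for block and column its slope changed sign, to 0.008 (adjusted p = 0.727). Mrpl24, the counterpart of a bacterial protein that starts assembly of the large subunit and lies near the exit tunnel, ran from -0.15 to 0.43 in the youngest and from -0.25 to 0.18 in the oldest mice, with a slope of -0.02 ± 0.01 (adjusted p = 0.34). Mrpl36, the counterpart of a small zinc-binding bacterial protein, was the single gene with a slope above 0 among the 5. It ran from -0.14 to 0.19 in the youngest and from -0.09 to 0.33 in the oldest mice, with a slope of 0.02 ± 0.008 (adjusted p = 0.22). The next smallest p on the higher side were those of Mrpl18 (0.01, adjusted p = 0.56), Mrpl17 (0.02, 0.639) and Mrpl19 (0.01, 0.657).

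**Figure D3:**
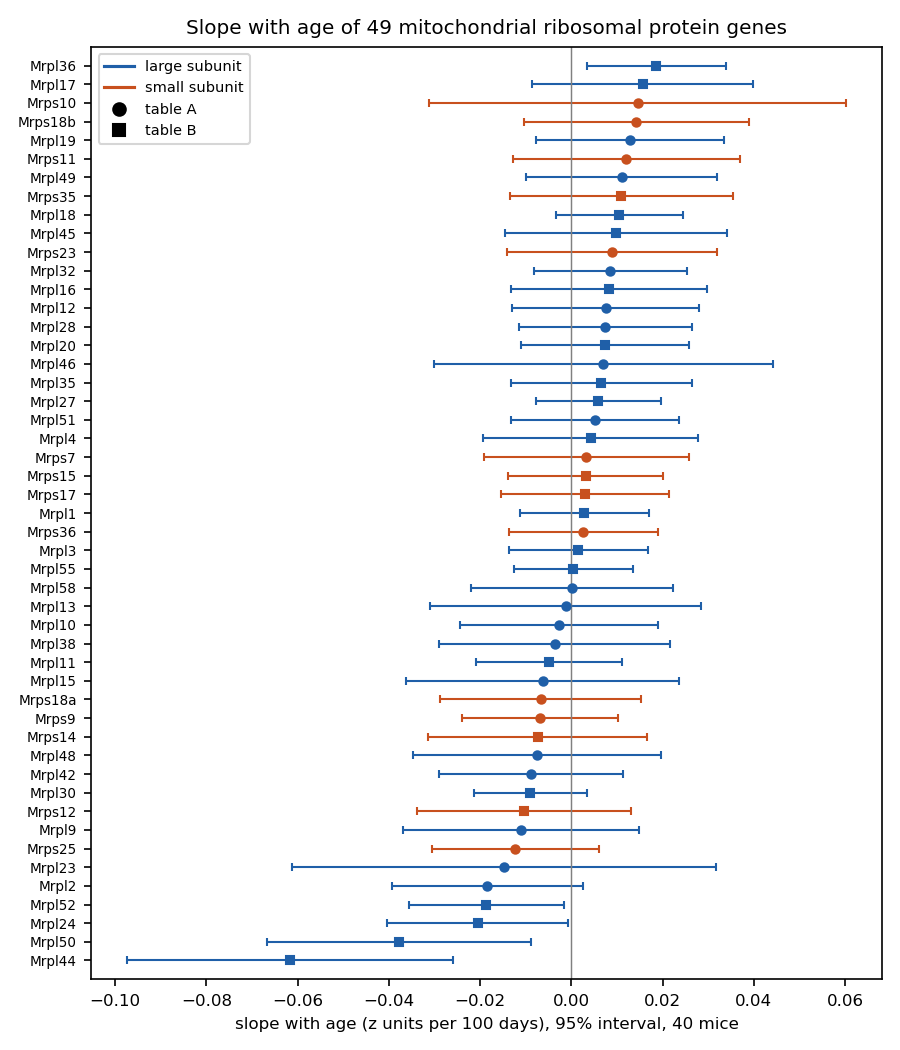
Slope of each gene's spot signal with age, in z units per 100 days over 40 mice, with its 95% interval; colour gives the subunit and shape the table. Most intervals cross 0, and the 5 that do not are Mrpl36 above 0 and Mrpl52, Mrpl24, Mrpl50 and Mrpl44 below it.

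By class, the median slope was 0.002 for the large and 0.003 for the small subunit, and 0.003 for genes with bacterial counterparts and 0.0003 for those particular to mitochondria. None of the 14 small-subunit genes had an unadjusted p under 0.05 for the slope, and the difference between subunits was not tested. None of the 26 genes on table A did either, against 5 of 23 on table B. The share of all spots under that threshold is not given here for each table, so this split has no background beside it.

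The second comparison was restricted to the 30 adult mice of 169 days or older, where the youngest group could not set the slope. No member passed, and 0% of the spots did (limma). Mrps25, a small-subunit protein particular to mitochondria, was the single member with an unadjusted p under 0.05, or 2.04% of members against 2.59% of spots. Its signal ran from -0.3 to 0.25 in young adults, from -0.05 to 0.24 in middle age and from -0.4 to 0.16 in the oldest mice. The oldest group reached lowest and the 3 groups overlapped. Its slope was -0.03 ± 0.01 (SE, n = 30, adjusted p = 0.999976). Mrpl44 had a slope of -0.04 ± 0.02 and Mrpl50 of -0.02 ± 0.02, each with the same adjusted p. On the other side, Mrpl19, the counterpart of a bacterial protein at the subunit interface, had 0.03 ± 0.01, and Mrpl36 had 0.02 ± 0.01. The median member slope was 0.0008 and that of all spots 0.001.

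Steps between age groups were then taken one at a time, as differences of group means. From the youngest to the young adult mice, none of the 49 members passed and 0% of spots did. Mrpl44 alone was under an unadjusted 0.05, with a difference of -0.31 ± 0.13 (SE, n = 10 and 10, adjusted p = 0.819), and 5.94% of spots were. Mrpl52 (-0.12), Mrpl50 (-0.18) and Mrpl24 (-0.12) had the next smallest p on that side, and Mrpl13 (0.19), Mrpl20 (0.09), Mrpl17 (0.11) and Mrps25 (0.07) had the smallest on the other. From the young adult to the oldest mice no member passed, against 0.00592% of spots, and Mrps25 was the single member under an unadjusted 0.05, at -0.16 ± 0.07 (adjusted p = 0.99872), against 2.5% of spots. These steps share the young adult mice. The groups of every member overlapped in both steps.

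Between the sexes no member passed, and 0% of spots did (limma). Unadjusted p was under 0.05 for 2 members, or 4.08%, against 1.45% of spots. Mrpl15, the counterpart of a bacterial protein of the large subunit, ran from -2.02 to -0.73 in males (median -0.95) and from -1.1 to -0.17 in females (-0.85). Most of the mice lay in a shared range, with the lowest value in a male and the highest in a female, both in the oldest group. The difference, male less female, was -0.21 ± 0.07 (SE, n = 20 and 20, adjusted p = 0.999762). Mrps25 ran from -0.08 to 0.25 in males (median 0.07) and from -0.4 to 0.24 in females (-0.035), so that the lowest values were female while the highest were alike. Its difference was 0.13 ± 0.05 (adjusted p = 0.999762). Mrpl12, which with Mrpl10 builds the stalk of the large subunit, differed by -0.11 ± 0.05 and Mrps12 by -0.12 ± 0.06, each with the same adjusted p.

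Whether the slope with age differed between males and females was tested as an interaction. No member passed, and 0% of spots did. The 2 members under an unadjusted 0.05, against 2.01% of spots, were Mrpl10, with a slope 0.04 ± 0.02 per 100 days higher in males, and Mrpl15, with -0.07 ± 0.03 (adjusted p = 0.999386 for both). In the oldest group Mrpl10 spread from 0.47 to 1.31, where in middle age it lay between 0.97 and 1.28.

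The youngest group spans the end of weaning, and its ages leave a gap between 21 and 33 days. The 5 mice aged 33-44 d (3 male, 2 female) were therefore compared with the 5 aged 17-21 d (2 male, 3 female), with sex as a term. The large-subunit genes Mrpl44, Mrpl50 and Mrpl24 were lower at 33-44 d, and no member was higher. These 3 of 49 members compare with 7.48% of spots called in either direction and 5.52% called lower (limma), so the members' share was near the background. At an unadjusted p under 0.05 there were 5 members (10.2%), against 19.5% of spots.

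Mrpl44 read 0.74, 0.58, 0.85, 0.66 and 0.53 in the 17-21 d mice and -0.11, 0.26, 0.42, 0.11 and -0.06 in the 33-44 d mice. All 5 older mice lay below all 5 younger ones. The difference was -0.54 ± 0.11 (SE, n = 5 and 5, adjusted p = 0.0173, limma). Mrpl50 read 1.7, 1.56, 1.74, 1.64 and 1.46 in the younger and 0.87, 1.15, 1.42, 1.08 and 0.86 in the older mice, again without overlap. The difference was -0.53 ± 0.11 (adjusted p = 0.0177). Mrpl24 read 0.37, 0.22, 0.43, 0.41 and 0.29 in the younger and -0.15, 0.12, 0.16, -0.09 and -0.04 in the older mice, also without overlap. The difference was -0.34 ± 0.09 (adjusted p = 0.0328). Of all spots, 8.68% had no overlap between these groups.

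**Figure D4:**
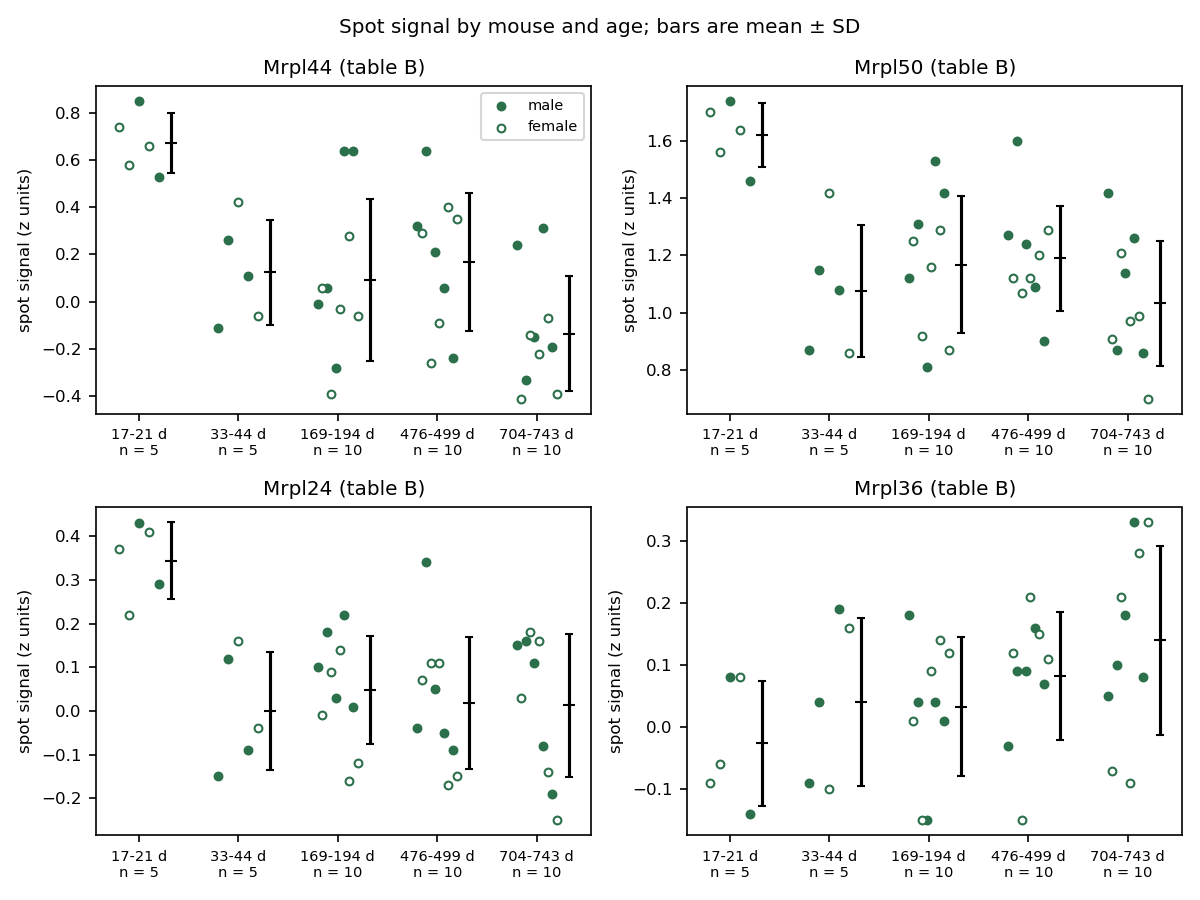
Spot signal of Mrpl44, Mrpl50, Mrpl24 and Mrpl36 in each of 40 mice, in z units by age; filled points are males, open points females, and bars are mean ± SD. For the first 3 genes the 17-21 d mice lie above all 33-44 d mice and above all of the oldest mice. The young adult and middle-aged groups reach the range of the 17-21 d mice. All later groups overlap with the 33-44 d mice. Mrpl36 overlaps throughout.

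Beyond these ages the 3 genes did not stay at 1 level. Mrpl44 reached 0.64 in 2 young adult mice and in 1 middle-aged mouse, inside the range of the 17-21 d mice. Mrpl50 reached 1.53 and 1.60 in these groups and Mrpl24 reached 0.22 and 0.34. In the oldest group, by contrast, every mouse lay below all of the 17-21 d mice for each of the 3 genes, which was not tested. Mrps12 had the next smallest p on the lower side, at -0.25 ± 0.09 (adjusted p = 0.122). The members with the smallest p on the higher side were Mrpl1 (0.16, adjusted p = 0.287), Mrpl35 (0.2, 0.307), Mrpl18 (0.15, 0.372) and Mrpl17 (0.17, 0.409). The median over the 49 members was -0.01, against 0.02 for all spots.

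The spots of Mrpl44 and Mrpl50 lie in columns of the array that moved the same way, and that of Mrpl24 does not. Read in order, the spots of table B form 16 blocks of 22 columns, and a column holds 384 spots. In column 8, which holds Mrpl44, 131 of the 135 spots called were lower at 33-44 d, and the column's median difference was -0.27. In column 10, which holds Mrpl50, 98 of 103 called spots were lower and the median was -0.18. Column 14, which holds Mrpl24, had a median of 0.11, with 25 of its 65 called spots lower, so Mrpl24 went against its column. Mrpl1 did likewise, at 0.16 in column 9, where 251 of 254 called spots were lower.

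After subtracting, on every array, the median deviation of the 24 spots in the same block and column from their own means, Mrpl44 differed by -0.09 (adjusted p = 0.311), Mrpl50 by -0.16 (adjusted p = 0.181) and Mrpl24 by -0.41 (adjusted p = 0.0618), and no member passed. The difference of Mrpl24 was larger than the deposited -0.34, with an SE of 0.0869 against 0.0853, so its lost call was not a smaller difference. Its adjusted p depends on all spots. The share of all spots that passed with block and column, or the column alone, subtracted is not given here. With the column alone subtracted the values were -0.28 (adjusted p = 0.0728), -0.34 (0.0511) and -0.45 (0.028), so that Mrpl24 passed. Mrpl1 was higher with the column alone subtracted, at 0.55 (adjusted p = 0.0333), and stood at 0.42 after block and column (adjusted p = 0.0781). Over table B the median size of the difference was 0.13 as deposited and 0.12 after the correction, and 17 of the 23 members kept their sign. On table A it was 0.0429 and 0.0417, and no member passed there in either form.

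**Figure D5:**
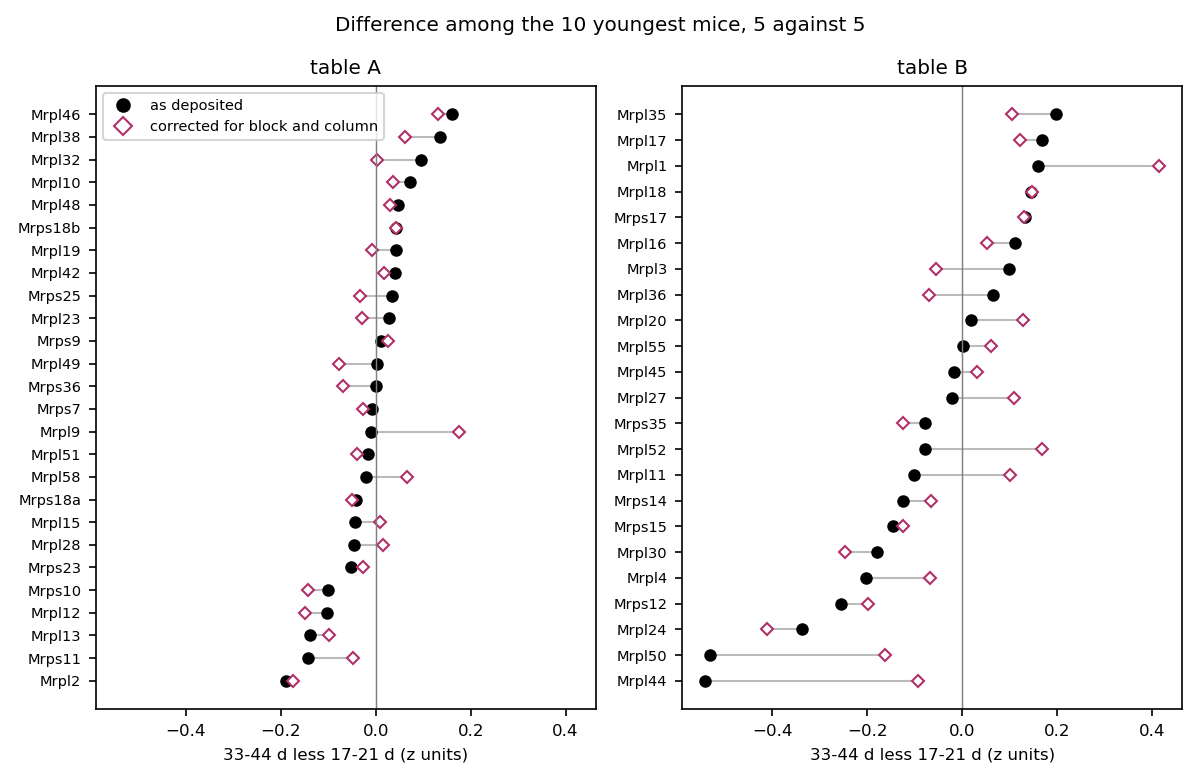
Difference in z units of 5 mice aged 33-44 d less 5 aged 17-21 d, for each gene on table A and table B; black points are values as deposited and open diamonds are values corrected for block and column. Mrpl44 and Mrpl50 move toward 0 with the correction, while Mrpl24 and Mrpl1 move away from it.

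Single mice also moved these calls. No member passed without male replicate 3 or without female replicate 5 of the youngest group, and Mrpl44 was the single one to pass without female replicate 1 (adjusted p from 0.00363 to 0.104 for Mrpl44 over the 10 fits that leave out 1 mouse). Mrpl24 also missed the threshold without male replicate 1, 4 or 5 or female replicate 3, and with array weights (adjusted p = 0.0633). The meaning of the title number was not given in the sources used here. With the sets of 8 in title order as a block, no member passed and 0.00592% of spots did: Mrpl44 differed by -0.41 (adjusted p = 0.343), Mrpl50 by -0.39 (0.343) and Mrpl24 by -0.23 (0.373). Only 3 of the 5 sets held young mice of both ages, and that fit had 3 residual degrees of freedom. Both young mice with a number above 46 were in the 33-44 d group, and with that division as a block no member passed (Mrpl44 -0.47, adjusted p = 0.0816). The division and the 2 ages were thus partly aligned.

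Markers of some other cells were also called in this contrast. No gene was called among 4 lung epithelial, 4 endothelial, 2 lymphoid, 5 myeloid and 2 heart and skeletal muscle genes measured. Of 22 cell division genes, 1 was called lower (4.55%, against 5.52% of all spots). Of 7 erythroid and blood genes measured, 6 were lower at 33-44 d, against 5.52% of all spots, and the list's median per mouse ran from 1.38 to 1.74 in the 17-21 d mice and from 0.81 to 1.23 in the 33-44 d mice. Of 9 smooth muscle and fibroblast genes, 5 were lower, with per-mouse medians from 0.63 to 0.88 and from 0.46 to 0.75. These 5 were Col1a1, Col1a2, Col3a1, Pdgfra and Pdgfrb. The smooth muscle genes Acta2 (0.04) and Cnn1 (0.08) were not called, nor were Dcn (-0.04) and Mfap4 (-0.31). Of the erythroid list, Slc4a1 (0.07) was not called. Some of the lower spots of both lists lie in the columns described above: Hbb-y and Col1a1 in column 8 of table B, Fech and Col3a1 in column 9 and Col1a2 in column 10. The other lower ones were Hba-a1 and Hba-x in column 7, Pdgfrb in column 13 and Alas2 in column 16 of table B, and Pdgfra in column 8 and Hba-a2 in column 12 of table A. After correction for block and column none of these markers passed, and here too the share of all spots that passed is not given. Fech then differed by -0.03, Col3a1 by -0.06 and Col1a2 by 0.007, while Hba-a2 differed by -0.62 (adjusted p = 0.054) and Alas2 by -0.54 (0.0765). Their part in the differences of Mrpl44, Mrpl50 and Mrpl24 was not tested. Lung identity rested on few markers, since 4 of 20 lung epithelial and 4 of 12 endothelial genes had a single-gene spot. Of the epithelial genes, Slc34a2, an alveolar phosphate transporter, lay at percentile 81.8 of its table, Sftpd, a surfactant protein, at 48.6, Lpcat1 at 33.7 and Muc1 at 15.2. Of the endothelial genes, Pecam1, an adhesion protein, lay at 84.8, Cdh5 at 57.0, Ednrb at 52.7 and Car4 at 34.9. The median percentiles were thus 41.1 and 54.9, near the middle of all spots.

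A second spot of their own was found for 6 members, which shows how far 1 gene's signal was repeatable. For each pair the correlation over the 40 mice was computed, with p adjusted over 7 relations that include the head-to-head pair. Mrpl45, which lies at the exit tunnel and holds the ribosome to the inner membrane, had 2 spots in different columns of table B that agreed. Pearson's r was 0.80 and Spearman's rho 0.73 (permutation p = 1e-05 for both, the smallest 100000 permutations can give, adjusted p = 7e-05). Without the 2 mice farthest from the median, r was 0.74. It was 0.85 in the 28 mice with a title number up to 46 and 0.60 in the 12 above it. Neither spot had a slope beyond its error, at 0.01 and 0.006 per 100 days.

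The other 5 pairs showed no such agreement. For Mrpl50, the spot on table A had r = 0.13 with that on table B (permutation p = 0.413, adjusted 0.482; rho 0.09, permutation p = 0.593), and differed by -0.11 ± 0.19 among the youngest mice (adjusted p = 0.848) where the table B spot differed by -0.53. The table A spot was dim, with a mean of -1.30 against 1.18 for the table B spot, and the part of its low level was not tested. The pair of Mrpl48 had r = 0.11 (permutation p = 0.484, adjusted 0.484) and rho = 0.31 (permutation p = 0.0551). The pair of Mrps7, with means of 0.12 and -0.85, had r = -0.25 (permutation p = 0.122, adjusted 0.214) and rho = -0.28 (permutation p = 0.0858). That of Mrps17 had r = -0.30 (permutation p = 0.0606, adjusted 0.141) and rho = -0.33 (permutation p = 0.0384, adjusted 0.0896). Without the 2 mice farthest from the median, r was 0.0966 for Mrpl50, 0.33 for Mrpl48, -0.15 for Mrps7 and -0.43 for Mrps17. For Mrpl23, which lies beside the exit tunnel, the spots ran against each other, with r = -0.38 (permutation p = 0.0154, adjusted 0.0539; -0.38 without the 2 mice farthest from the median) and rho = -0.39 (permutation p = 0.0127, adjusted 0.0445). That relation was -0.16 within the 28 mice up to title number 46 and 0.18 within the 12 above it, and so did not hold in either. The single spot of Mrps25 stood beside 3 that also carry Nr2c2, and these had slopes of 0.009, 0.02 and -0.003 per 100 days, where the Mrps25 spot had -0.01.

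The median pair of members shared little variation between mice. After removing the mean of each age and sex group, the median correlation between pairs of members was 0.029 on table A (325 pairs) and -0.005 on table B (253 pairs), and it was 0.003 over pairs of single-gene spots on each table. These are descriptions over the same 40 mice, and members share an array. On table B the 14 pairs in the same column had a median of 0.44, which became 0.04 after correction for block and column. Mrpl44 and Mrpl50 were the closest pair, at 0.89, and stood at 0.20 after the correction, while Mrpl50 and Mrpl24 had 0.63 before and 0.70 after it.

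The genes most like the members were found by correlating each single-gene spot with the members' median per mouse on the same table, over 40 mice. On table A these were Prrc2b (r = 0.72), Tor1aip2 (0.68), Rapgef5 (0.68), Prpf6 (0.68) and Kbtbd8 (0.66). On table B they were Ezr (0.65), Mpv17 (0.65), Rps14 (0.65), Taok1 (0.63) and Rfc1 (0.63). The median member had r = 0.19 with the median of table A and 0.16 with that of table B.

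Other genes of the same system were read beside the members. Of 86 listed genes of mitochondrial translation and ribosome assembly, 54 were measured, and none passed for the slope over 40 mice. Unadjusted p was under 0.05 for 1 higher and 8 lower, together 16.7% against 13.8% of spots, and the median slope was 0.002. Those with the smallest p were Mtg1, a GTPase of large-subunit assembly, at 0.03 ± 0.008 (adjusted p = 0.0712), and Hsd17b10, a subunit of mitochondrial RNase P, at -0.04 ± 0.01 (adjusted p = 0.0656). Tfb1m, which methylates the small ribosomal RNA, had -0.05 ± 0.02 and Afg3l2, a protease that matures Mrpl32, had -0.04 ± 0.01. Among the youngest mice, 5 of the 54 passed (9.26% against 7.48% of spots) and all 5 were lower at 33-44 d (5.52% of spots were), Hsd17b10 (-0.44), Tfb1m (-0.55) and Afg3l2 (-0.44) among them. Their spots lie in columns 9, 10 and 6 of table B.

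The proteins of the mitochondrial ribosome enter through the import machinery, of which 22 of 30 listed genes were measured. None passed for the slope, and 3 (13.6% against 5.52% of spots) were lower at 33-44 d, among them Tomm5 (-0.52), a small subunit of the outer-membrane pore, and Timm17b (-0.61), of the inner-membrane translocase. The spots of Tomm5 and Timm17b lie in columns 9 and 10 of table B, where 251 of 254 and 98 of 103 called spots were lower. Of 10 measured transcription factors of nuclear genes for mitochondria, none passed in either comparison. The spot of Nrf1 itself had a slope of 0.002 ± 0.01 and that of Gabpb1, a GABP subunit, 0.01 ± 0.01.

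The cytosolic ribosome and the respiratory chain, which sit on either side of the mitochondrial ribosome in this pathway, were counted in the same way. Of 66 cytosolic ribosomal protein genes none passed for the slope, 15 (22.7%, against 13.8% of spots) had an unadjusted p under 0.05 and the median slope was -0.002. Of 64 respiratory chain and ATP synthase genes none passed, 15 (23.4%) had an unadjusted p under 0.05 and the median slope was -0.005. Among the youngest mice 6 of the 66 (9.09%) and 3 of the 64 (4.69%) were lower, against 5.52% of spots, and none was higher. Of those lower, Rpl38 and Atp5b lie in column 9 of table B, Rps6 and Rpl4 in column 10 and Atp5g1 in column 8. Whether the members differed from these lists was not tested.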

How the data were processed

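As deposited, every value by the authors is a z score, with mean 0 and SD 1 over all spots of each of 80 arrays. The scale and log base under the score, background correction and filters: not given in the sources used here. Per the labels' protocols, RNeasy columns gave the RNA and 33P-dCTP the label. Ages, sexes and groups came from the labels; for 1 male, aged 714 d, 2 labels name different mice, and an alternative dropped it. Separate mice were the replicates. Each table was fitted over all spots in R 4.3.3 with limma 3.58.1 (lmFit, then eBayes; two-sided), sex being a term, and p adjusted by Benjamini-Hochberg over 16896 spots. The code was tested on simulated data. The number of arrays limits the precision.

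Members and lists were chosen with earlier results of these data known. Named are, per comparison, 4 members per direction by smallest p, the 3 highest and lowest spots per table, members with several spots, up to 3 genes per direction of other lists, and 5 genes per table nearest the members' median. All 49 members matched RefSeq by gene number. Spot block and column were read from spot order. Alternatives were array weights, log2 age, normalization, filters, spot position, title number, title-order sets and leaving out each mouse.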

Additional observations from a re-analysis of the deposited data

Results flagged for a closer look

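Each member, and the members' median, was screened in each age group of 10 for a highest or lowest mouse whose gap to its neighbour over the group's range exceeded Dixon's 95% value. Of 208 such groups 15 had one (7.21%), and chance flags about 1 group in 20. Female replicate 5 of the oldest group accounted for 4: it was lowest for Mrpl18 (-0.78, next -0.43) and highest for Mrpl20 (0.22, next -0.31), Mrpl32 (0.68, next 0.34) and Mrpl38 (2.07). In the same age group female replicate 3 was lowest for Mrps23 (-0.37). In the youngest group male replicate 3 was lowest for Mrpl32 (-0.08), male replicate 1 for Mrpl51 (-0.62), female replicate 1 for Mrpl35 (-0.93) and Mrps9 (0.74), and female replicate 5 was highest for Mrps17 (0.17) and lowest for Mrps35 (-0.64). In young adults female replicate 3 was highest for Mrpl13 (0.37), female replicate 4 lowest for Mrps10 (-2.42) and female replicate 5 lowest for Mrps18b (-1.46). In middle age male replicate 5 was lowest for Mrpl27 (0.58). None of these values belongs to a gene called in any comparison.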

How the results depend on the processing

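Of 227 values of counts and medians under alternatives other than leaving out each mouse in turn, 210 were labelled unchanged. A median was so labelled if it moved by less than the SE of that comparison in the members' per-mouse median. A count was so labelled if equal or within 1.5 times. These alternatives keep all mice, a title-number part or only the groups compared, or drop the male with conflicting labels. Called members for the slope over 40 mice became 1 without the dimmest spots, 2 with array weights, 2 on log2 age, 1 with the sets of 8 mice in title order as a block (chosen after seeing the data), and 0 to 1 on leaving out 1 mouse. Apart from the block by these sets (2.39% for the slope), the share of all spots called under the alternatives is not given here. The counts under the other alternatives therefore have no background beside them. Among the youngest mice the 3 called became 0 after block and column correction, with these sets as a block, with the title number above 46 or (a division chosen after seeing the data) of 46 and above as a block, and in the mice up to 46 or below 46, and 0 to 3 on leaving out 1 mouse; fits in the later mice alone could not be made. In later mice alone (above 46; 46 and above) the members' median was 0.0132 and 0.00882 for the adult slope, -0.03 and -0.045 from youngest to young adult, 0.06 and 0.0525 from there to the oldest, and -0.00973 for the slope by sex at 46 and above. Signs reversed in 17 of 907 values of named members. After block and column correction Mrpl52 had 0.00751 (slope) and 0.0401 (young step). In mice above 46, Mrpl4 had -0.0233 and Mrpl13 0.0183 for the adult slope; for the young step Mrpl13 had -0.095, Mrpl17 -0.07, Mrpl44 0.265, Mrpl52 0.08, Mrpl50 0.175 and Mrpl24 0.01; and Mrpl13 had 0.0125 between sexes. At 46 and above, Mrpl19 had -0.00114 (slope), Mrpl4 -0.0144 (adult slope), and Mrpl17 -0.0725, Mrpl44 0.35, Mrpl52 0.1225 and Mrpl50 0.28 (young step). The cause was not tested. Replicate numbers follow accession order and pair no mice by label; each number holds the same 8 mice as 1 title-order set, so the block by set is also the replicate block, and it changed no call of a member in the other 5 comparisons.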
